A study of Rattus norvegicus with 3 samples.

Results

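The major histocompatibility complex (MHC) genes and the antigen processing genes around them were followed in rat induced pluripotent stem (iPS) cells and in the somatic cell types set against them. Rat MHC genes carry names that start with RT1. Members were the gene probes of the array whose name starts with RT1, or is 1 of 15 further names: the light chain B2m, the invariant chain Cd74, the transporter and loading genes Tap1, Tap2, Tapbp, Erap1, Calr and Canx, the proteasome genes Psmb8, Psmb9, Psmb10, Psme1 and Psme2, and the transactivators Ciita and Nlrc5. This gave 42 gene names and 59 probes, of 35561 names and 41012 probes on the array. They hold 23 class I heavy chain names (32 probes) and 6 class II chain names (11 probes). Ciita, Erap1 and Nlrc5 had no probe under that name.

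Each of 3 arrays carried total RNA of 1 sample of rat iPS F65 cells, labelled with Cy3, beside mix1, labelled with Cy5. For the mix1 channel the labels describe cultured bone marrow cells (BMC) and ear fibroblasts in primary culture (PEF), both of rat, so mix1 was taken as their mixture, in proportions not given in the sources used here. No strain, sex, age or reprogramming factor was given, and neither group was treated. The iPS cells grew on irradiated mouse embryonic fibroblasts in a serum-containing stem cell medium, and the labels do not say that these feeder cells were removed before extraction. All iPS samples carry the single name F65, and no label tells whether each was a culture of its own. The p-values then cover just the variation among these samples, which may be of a technical kind. Mix1 was 1 control RNA on all arrays, so its own spread was not measured. Since each channel is a bulk RNA pool, fewer cells of a type and less RNA per cell cannot be told apart.

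Class I molecules sit on most nucleated cells and present peptides made inside the cell to cytotoxic T cells. They consist of a heavy chain and the light chain beta-2-microglobulin. Their peptides are cut by the proteasome, pumped into the endoplasmic reticulum by the Tap transporter and loaded there with the help of tapasin and calreticulin. Class II molecules are pairs of an alpha and a beta chain on macrophages, dendritic cells and B cells. They travel with the invariant chain to endosomes, where cathepsins prepare both the chaperone and the peptide. Interferon gamma raises most of these genes, and pluripotent cells are known for low surface levels of class I.

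Values below are log2 ratios of the processed signals, iPS F65 over mix1, so a negative value means less signal in iPS F65. A probe was tested if the scanner software marked it well above background on all 3 arrays in at least 1 channel. It was called higher or lower at an adjusted p under 0.05 in limma and a mean log2 ratio of at least 1 in either direction. Of the 59 member probes 48 were tested: 40 were lower in iPS F65, 0 were higher and 8 were neither. The array as a whole was far from still, as 55.3% of the 25801 tested probes were called, 24.1% lower and 31.2% higher. The median of all tested probes was 0.27 and that of the tested members was -2.78, and 46 of these 48 lay below the all-probe median. Of the 48, 15 passed the filter through mix1 alone, where a lower ratio was close to fixed. The other 33 were well above background on all arrays in each channel, and 26 of them were lower. Above the all-probe median were the proteasome subunit Psmb10 and the chaperone calnexin (Canx). With normexp background correction and loess in place of the software's own correction (below: with loess) the all-probe median was -0.06, and 41.8% instead of 56.5% of all calls were higher.

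**Figure D1:**
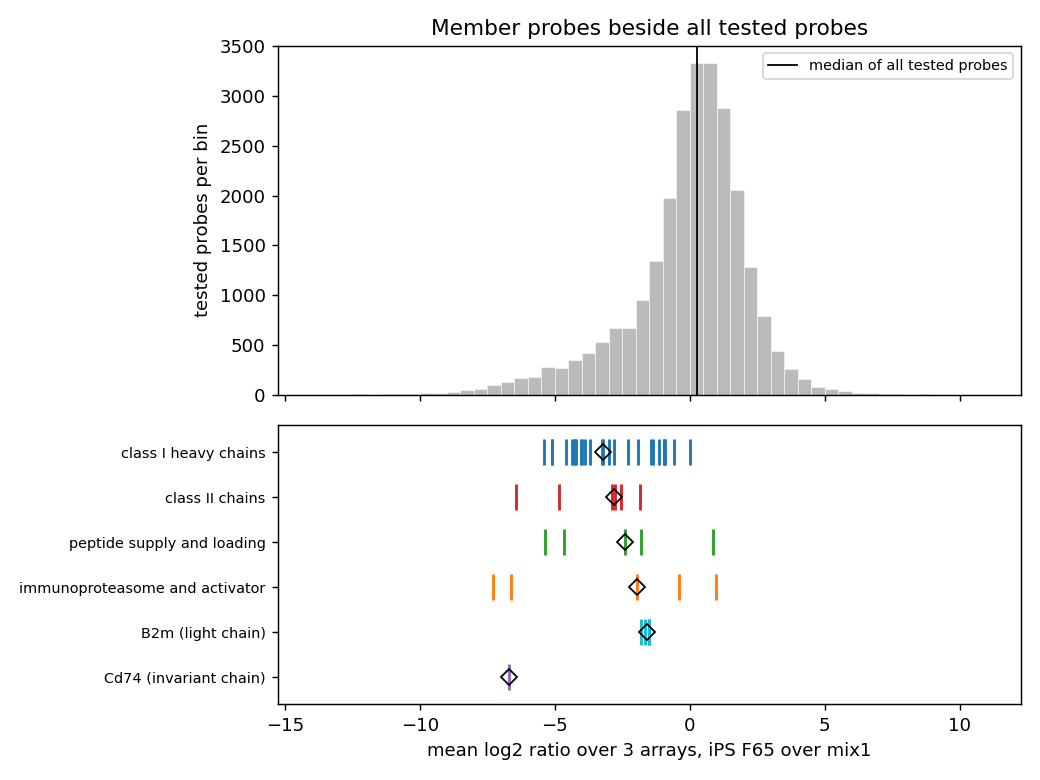
The upper panel counts all 25801 tested probes by mean log2 ratio of iPS F65 over mix1 (bins of 0.5), with a line at their median of 0.27. The lower panel marks each tested member probe as a tick and the median of its group as a diamond, and shows the groups on the low side of the distribution, with class I spread from -5.40 to 0.01.

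The samples matched their labels on most markers. All 10 fibroblast probes and all 12 tested macrophage probes were lower in iPS F65, with medians of -7.89 and -5.66, beside 24.1% of all tested probes. Well above background in iPS F65 on all arrays were 8 fibroblast and 7 macrophage probes. The rest passed the filter through mix1 alone, where a lower ratio was close to fixed. In mix1 each of these 22 probes was above background on every array. The summed signal of the fibroblast list was 7873 to 10989.9 in iPS F65 and 2160740.0 to 2848110.0 in mix1. That of the macrophage list was 3679 to 4554 in iPS F65 and 227254 to 266485 in mix1. In iPS F65 the fibroblast gene Thy1 and the macrophage genes Aif1, Itgam and Cd163 were dim on all arrays, and Cd163 was also dim in mix1. In neither channel did the B cell genes Cd79b and Ms4a1 stand well above background, while Blnk, the one tested B cell gene, was at least 4.41-fold lower in iPS F65. The leukocyte gene Ptprc was above background in mix1 at 3 probes, of which 2 were lower. The Blnk and Ptprc probes passed the filter through mix1 alone, where a lower ratio was close to fixed. Of 2 tested dendritic cell probes, both for Cd83, 1 was higher at 1.79 and the other was at 0.82. Of 4 pluripotency genes with a probe, Nr0b1, Dnmt3b and Pou5f1 were higher in iPS F65, and Lin28 was at -0.02. Pou5f1 passed the filter through iPS F65 alone, where a higher ratio was close to fixed, and was at least 4.53-fold higher. Between 57.1 and 62.1% of gene spots were well above background in a channel of an array, and log2 ratios correlated at 0.993 or more between arrays, across probes, which are not independent replicates.

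The class I heavy chains bind the peptide and are the part that T cell receptors see. Of 26 tested heavy chain probes 21 had less signal in iPS F65 by this rule and 5 were neither, with a median of -3.22 and array medians of -3.29, -3.15 and -3.22. Ratios of -3 or lower were found at 14 of the 26, compared with 10.0% of all tested probes. By gene name, 13 were lower at every tested probe, 2 had one lower probe and one that was neither, 3 were neither and 5 had no tested probe. At 22 of the 26 probes both channels passed the background mark on all arrays, and the median over those was also -3.22. Of those 22, 18 were lower, beside 24.1% of all tested probes. The other 4 passed the filter through mix1 alone, where a lower ratio was close to fixed. Class I heavy chain signal in iPS F65 was thus reduced but measurable at most probes. With normexp on the local backgrounds as given, an alternative that called only 5148 probes on the whole array, 14 of the 26 were lower and the median was -1.77. The calls lost there were those of RT1-A3, RT1-CE7, RT1-N1, RT1-N3, 2 RT1-Aw2 probes and 1 RT1-S3 probe.

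RT1-A2 is a classical class I gene of the RT1-A region, and its 2 probes lie on chromosome 20 at chr20:5024426-5024485 and chr20:5024291-5024444 in the array's rat build, rn3. At the first, the signal was 773, 939.5 and 884 in iPS F65 and 26566, 31159.7 and 30655 in mix1 on the 3 arrays. The second read 2726, 3167 and 3142 in iPS F65 and 52419, 61223 and 59558 in mix1. All iPS F65 values lay far below all mix1 values at both probes. The mean ratios were -5.09 ± 0.03 (SD, n = 3) and -4.26 ± 0.01, a 34.1-fold and a 19.2-fold lower signal, with limma adjusted p of 5.31e-06 and 5.31e-06.

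RT1-A3, of the same region, was not well above background on any iPS F65 array, at 26.6, 49.7 and 37.6 against 149.9, 198 and 194 in mix1, and its signal was at least 2.72-fold lower. Such a bound compares the mix1 level with the lowest level that counts as above background, or the dim probe's own where that is higher. RT1-Aw2, a class I heavy chain name with 4 probes on chromosome 20 or its unplaced part, spanned a wide range. Its dim probe gave -4.72, -4.35 and -4.65, at least 13.9-fold lower. The second probe gave -4.28, -4.32 and -4.29, and a probe printed in 10 spots gave -4.11, -3.97 and -3.95. The last, at chr20:2870412-2870471 in rn3, gave -1.41, -1.39 and -1.32, only 2.59-fold lower. All 4 were called lower, though the dim probe passed the filter through mix1 alone, where a lower ratio was close to fixed. The second probe and the one in 10 spots lie at chr20:3412697-3412760 and chr20:5059401-5059470, so the 4 may not measure 1 gene.

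The RT1-CE genes are class I genes of the RT1-C/E/M region, known for many near-identical copies. RT1-CE16 gave -4.29, -4.19 and -4.20, RT1-CE2 gave -4.06, -3.99 and -3.99 and RT1-CE3 gave -3.93, -3.87 and -3.85, between 14.7-fold and 18.7-fold lower. RT1-CE7 gave -3.14, -3.24 and -3.23. The 2 probes of RT1-CE4 gave -1.97, -1.87 and -1.90 and -1.47, -1.45 and -1.42, smaller drops that also passed the threshold. RT1-CE1, at -0.97, -0.95 and -0.96, and RT1-CE12, at -0.57, -0.58 and -0.56, were below 0 on every array and short of the 2-fold limit. With loess normalization RT1-CE1 passed it, at -1.16. RT1-CE10, with 17.2, 14.5 and 14.3 in iPS F65 and 82.4, 98.1 and 99.7 in mix1, was above background in mix1 on 2 of 3 arrays. RT1-CE6 was so on 1 array, and neither was tested.

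RT1-CE5 and RT1-Cl each had 1 lower probe and 1 that was not called. The RT1-CE5 probe at chr20:3513600-3513862 in rn3 read 808, 955 and 928 in iPS F65 and 5598, 6828 and 6331 in mix1. It was lower at -2.80 ± 0.03. The probe at chr20:3512497-3512556 read 955, 1167 and 1128 in iPS F65 and 932, 1126 and 1162 in mix1, and these values overlap. Its ratio of 0.01 ± 0.05 did not pass limma's test (adjusted p = 0.624), and its sign turned to -0.35 with loess. One probe of RT1-Cl fell from 17283, 20685 and 20165 in mix1 to 409, 504 and 463 in iPS F65, a ratio of -5.40 ± 0.04. The other read 31993, 40601 and 38729.7 in iPS F65 and 63446, 78488 and 73039 in mix1, a ratio of -0.95 ± 0.04 that missed the 2-fold limit and passed it with loess, at -1.16. The accession of this second probe belongs to RT1-CE5 in RefSeq, so the 2 probes may not measure 1 gene.

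The remaining class I names belong to nonclassical or less well placed genes. RT1-M3, whose mouse counterpart presents formylated bacterial peptides, gave -2.97, -2.95 and -3.02. RT1-N1 gave -3.44, -3.06 and -3.22 and RT1-N3 gave -3.83, -3.69 and -3.60. RT1-S3 gave -4.36, -4.34 and -4.38 at one probe and -4.92, -5.28 and -5.13 at another, which was not well above background in iPS F65 and stands for a drop of at least 7.99-fold. RT1-M6-2 gave -1.13, -1.13 and -1.11 at its tested probe. RT1-T24-1, above background in iPS F65 on 2 arrays, gave -0.80, -0.79 and -1.23 and was neither, with a mean of -0.94 ± 0.25. Without replicate 1 or replicate 2 it passed the 2-fold limit at -1.01. RT1-M10-1, RT1-M2 and RT1-T24-2 were not well above background on any array or channel.

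**Figure D2:**
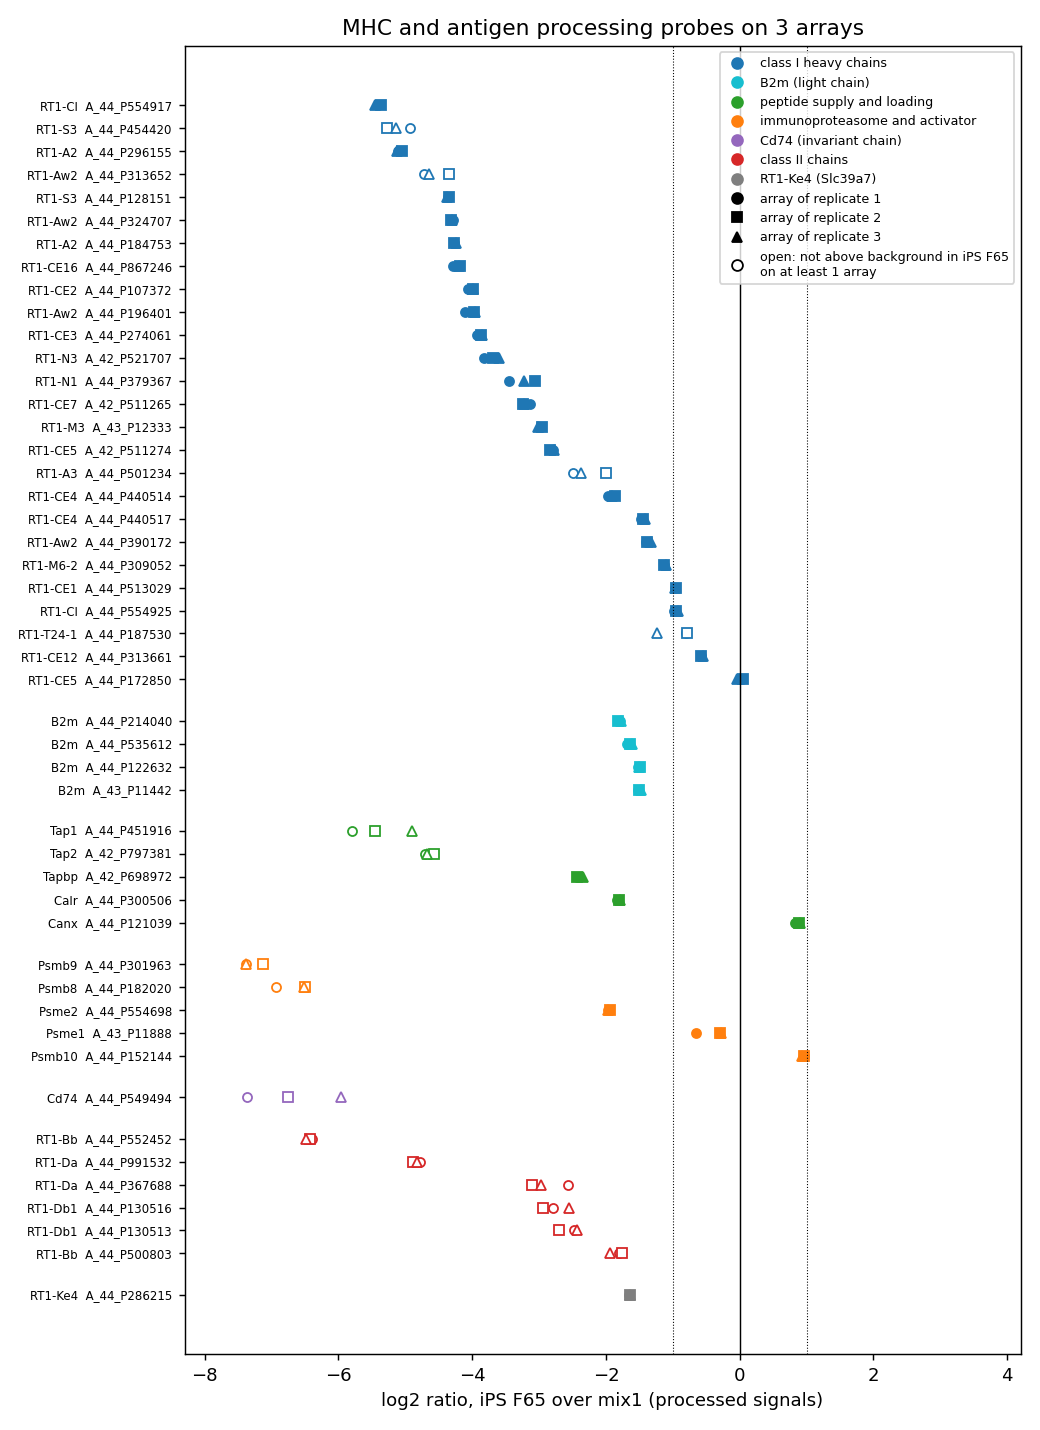
Each row is a tested member probe, with its log2 ratio of iPS F65 over mix1 on each of the 3 arrays and dotted lines at the 2-fold limit. Open symbols stand for probes not well above background in iPS F65 on at least 1 array. The 3 arrays lie close together at most class I probes and apart at the dim Tap1 and Cd74 probes, and the only probes to the right of 0 on all arrays are Psmb10 and Canx.

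Each probe is 60 bases long, and several class I probes lie over the same stretch of different genes. A pair was taken to share a stretch if at least 20 letters and 80% of the ungapped overlap matched. The 9 probes printed here were set into 2 stretches, each by its match to a reference probe. The rule also links the stretches, as RT1-CE3 of the second matches the RT1-CE4 probe of the first at 20 of 24 bases. It further links an RT1-Cl probe, at -5.40, to RT1-CE16 at 25 of 30 bases, and that probe does not match the reference by the rule. The stretches were chosen after the values had been seen, so the grouping is a description with no test. Capitals mark the bases that differ, within the overlap, from the reference probe of the stretch. On the first stretch the reference is RT1-CE1:
RT1-CE1: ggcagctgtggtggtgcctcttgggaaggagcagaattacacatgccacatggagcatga
RT1-CE12: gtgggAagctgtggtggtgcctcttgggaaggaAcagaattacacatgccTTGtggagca
RT1-M6-2: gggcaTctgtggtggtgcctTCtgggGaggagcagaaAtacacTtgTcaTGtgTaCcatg
RT1-CE4: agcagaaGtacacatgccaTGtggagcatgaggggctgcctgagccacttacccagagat

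These probes share 48 of 59, 52 of 57 or 28 of 31 overlapping bases with RT1-CE1. Their mean ratios ran from -1.45 at RT1-CE4 to -0.57 at RT1-CE12, with RT1-M6-2 at -1.12 and RT1-CE1 at -0.96. Signals on this stretch were 11347 to 25916 in iPS F65 and 31483 to 49492 in mix1. On the second stretch the reference is RT1-A2:
RT1-A2: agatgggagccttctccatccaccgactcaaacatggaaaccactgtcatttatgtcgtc
RT1-CE16: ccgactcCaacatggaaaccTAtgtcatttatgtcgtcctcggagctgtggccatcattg
RT1-CE2: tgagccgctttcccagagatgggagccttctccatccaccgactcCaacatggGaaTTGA
RT1-CE3: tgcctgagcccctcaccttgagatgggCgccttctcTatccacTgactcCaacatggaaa
RT1-CE4: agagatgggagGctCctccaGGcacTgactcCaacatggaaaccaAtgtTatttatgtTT

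On this stretch RT1-A2, RT1-CE16, RT1-CE2 and RT1-CE3 gave mean ratios of -4.26, -4.23, -4.01 and -3.88, and RT1-CE4 gave -1.91. RT1-CE4 shares 48 of 58 overlapping bases with RT1-A2, and RT1-CE16 shares 35 of 38. RT1-CE4 is the one gene with a probe on each stretch, and its ratios of -1.45 and -1.91 are closer to each other than its second probe is to the other 4 genes there. Every one of the 9 probes has at least 1 reading frame without a stop codon, which does not place a probe in coding sequence. How much RNA of near-identical class I genes each probe also binds was not tested, so the values are those of the probe and not surely those of 1 gene.

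**Figure D3:**
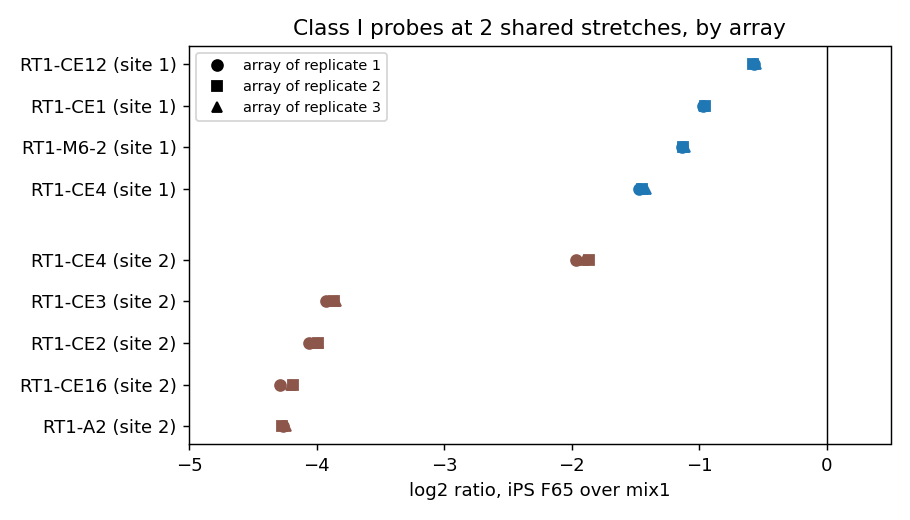
Points are log2 ratios of iPS F65 over mix1 on each of the 3 arrays for the 9 class I probes of the 2 shared stretches (site 1 in blue, site 2 in brown). The site 1 probes lie between -1.47 and -0.56, and the site 2 probes lie near -4 except RT1-CE4.

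B2m encodes the light chain that every class I molecule needs to reach the surface, and lies on rat chromosome 3. Its 4 probes gave closely alike drops. The first read 43844, 51584 and 52738 in iPS F65 and 151310.0, 181273 and 180447 in mix1, with no overlap, at a mean of -1.79 ± 0.02 (SD, n = 3). The other 3 probes gave means of -1.64 ± 0.03, -1.51 ± 0.02 and -1.50 ± 0.02. All 4 were called lower, between 2.83-fold and 3.46-fold, and none was dim in a channel. The median of the B2m probes was -1.58, beside -3.22 for the heavy chain probes.

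The genes for peptide supply and loading were split. Tap1 and Tap2 encode the paired chains of the peptide transporter and lie in the class II region of the MHC. Tap1 read 23.3, 36.8 and 51.0 in iPS F65, not well above background on any array, and 1298, 1612 and 1517 in mix1. Its ratio was -5.38 ± 0.46 (limma adjusted p = 0.000127), at least 22.4-fold lower. Tap2 read 68.5, 87.5 and 79.4 in iPS F65, above background on 2 arrays, and 1782, 2088 and 2036 in mix1, a ratio of -4.65 ± 0.07. Both transporter genes were thus close to the background of the array in iPS F65. With backgrounds as given both lost their calls (limma adjusted p = 0.14 and 0.111).

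Tapbp, which encodes tapasin, the bridge between the transporter and the class I molecule, kept a clear signal of 911, 1076 and 1074 in iPS F65 against 4897, 5783 and 5445 in mix1, and was lower at -2.40 ± 0.05. The chaperone calreticulin (Calr) read 11594, 13402 and 13523 in iPS F65 and 41405, 46875 and 46686 in mix1, lower at -1.81 ± 0.02. Calnexin (Canx), a chaperone of newly made glycoproteins in general, read 4004, 4619 and 4563 in iPS F65 and 2251, 2490.3 and 2451 in mix1. All its iPS F65 values lay above all its mix1 values, yet the mean of 0.87 ± 0.04 stayed under the 2-fold limit. With loess it was 0.40.

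Erap1, the peptidase that trims peptides to class I length, is on the array under its older name Arts1, which is not a member by the rule. Arts1 read 8814, 10127 and 10220.0 in iPS F65 and 14786, 17372 and 17035 in mix1, a mean of -0.75 ± 0.02 that was short of the limit. Among 5 further loading factors, all 5 had a tested probe: 5 of 6 probes were lower and none was higher. Of all tested probes 24.1% were lower and 31.2% higher. The further factors include the tapasin-like gene Tapbpl at -2.28, at least 2.66-fold lower, which passed the filter through mix1 alone. They also include the endoplasmic reticulum chaperone Hspa5 at -1.59 and the peptidase Lnpep at -1.43 and -1.11, the latter not called with loess (-0.84). The disulfide isomerase Pdia3, a part of the loading complex, was at -1.15.

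Interferon gamma exchanges the 3 catalytic subunits of the standard proteasome for Psmb8, Psmb9 and Psmb10. These 3 did not move together. Psmb8, at chr20:4788207-4788266 in rn3 beside Tap1, read 26.0, 38.6 and 39.3 in iPS F65 and 3161, 3479.9 and 3576 in mix1, a ratio of -6.64 ± 0.25, at least 51.8-fold lower. Psmb9, at chr20:4806568-4806627, read 35.4, 48.6 and 39.0 in iPS F65 and 5919, 6810.5 and 6508 in mix1, a ratio of -7.30 ± 0.15, at least 97.4-fold lower. Neither was well above background on any iPS F65 array, and with backgrounds as given neither was called (limma adjusted p = 0.0777 and 0.0558). Psmb10, on chromosome 19 and outside the MHC, read 32104, 38773 and 38852 in iPS F65 and 16448, 19844 and 20303 in mix1. All its iPS F65 values were higher, but its mean of 0.96 ± 0.02 missed the 2-fold limit, and with loess it was 0.72.

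Psme1 and Psme2 encode the paired subunits of the proteasome activator PA28. They differed from each other: Psme2 read 3907, 4712 and 4569 in iPS F65 and 15309, 17992 and 17886 in mix1 and was lower at -1.96 ± 0.02. Psme1 read 9877, 14269 and 14812 in iPS F65 and 15446, 17459 and 18045 in mix1, and its mean of -0.41 ± 0.21 (limma adjusted p = 0.0217) was short of the limit. The standard subunits that the immunoproteasome replaces, Psmb5, Psmb6 and Psmb7, gave 0.25, 0.24 and 0.45, none called, and with loess the signs of Psmb5 and Psmb6 turned. Of the other activators, Psme3 gave 0.16, which also turned. Psme4 was higher at 1 probe (1.46), a call lost with loess (0.95), and not called at the other (0.81).

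The class II chains named by the rule were at or near background level in iPS F65, unlike RT1-DMa, which is listed under another name and given below. Of 11 probes 6 were tested, from RT1-Bb, RT1-Da and RT1-Db1. Each passed the filter only through mix1, so a lower ratio was close to fixed by the filter. They were called lower, with a median of -2.82 and array medians of -2.68, -3.02 and -2.76. The highest iPS F65 signal of these probes was 69.5. This floor limits the ratios: a probe that is dim in mix1 can show only a small drop. RT1-Ba, RT1-DOa and RT1-DOb were not well above background in mix1 either, on any array, and were not tested. With backgrounds as given none of the 6 probes was called, at -2.21 to -0.43.

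RT1-Bb, the beta chain of the rat counterpart of HLA-DQ, read 17.6, 19.2 and 18.1 in iPS F65 and 1478, 1641 and 1620.1 in mix1 at its first probe, chr20:4730760-4730810 in rn3. That is a ratio of -6.43 ± 0.05 (SD, n = 3), at least 24-fold lower. At its second probe it read 53.4, 66.5 and 59.8 and 186, 224 and 229, a ratio of -1.83 ± 0.10, at least 3.19-fold lower. RT1-Da, the alpha chain of the counterpart of HLA-DR, read 34.4, 36.9 and 38.6 in iPS F65 and 945, 1089.5 and 1094 in mix1, a ratio of -4.83 ± 0.05, at least 15.8-fold lower. Its other probe gave -2.56, -3.10 and -2.97, at least 1.7-fold lower. For both genes the 2 probes differ in ratio by more than the spread between arrays.

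RT1-Db1, the beta chain of that counterpart, read 47.1, 52.3 and 63.8 in iPS F65 and 325, 403 and 375 in mix1, a ratio of -2.76 ± 0.20, at least 5.55-fold lower. A second probe gave -2.48, -2.70 and -2.44 and was above background in iPS F65 on 1 array. The third, at 16.7, 15.2 and 15.3 in iPS F65 and 56.2, 64.6 and 78.2 in mix1, was not tested.

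Cd74, the invariant chain that fills the class II groove until a peptide replaces it, read 23.1, 41.7 and 72.6 in iPS F65 and 3806, 4518 and 4519 in mix1. Its ratio was -6.69 ± 0.70 (limma adjusted p = 0.000229), the widest spread between arrays of any tested member. The spread lies in iPS F65, where only the array of replicate 3 was above background, and with backgrounds as given the call was lost (limma adjusted p = 0.0616). RT1-DMa, a chain of the molecule that exchanges the invariant chain remnant for peptide, is on the array as Hla-dma and so is not a member by the rule. It read 312, 388 and 343 in iPS F65, above background on all arrays, and 8468, 9497 and 9396 in mix1, lower at -4.72 ± 0.09. Ciita, the master transactivator of class II, is listed under its older name C2ta, with no array or channel well above background.

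**Figure D4:**
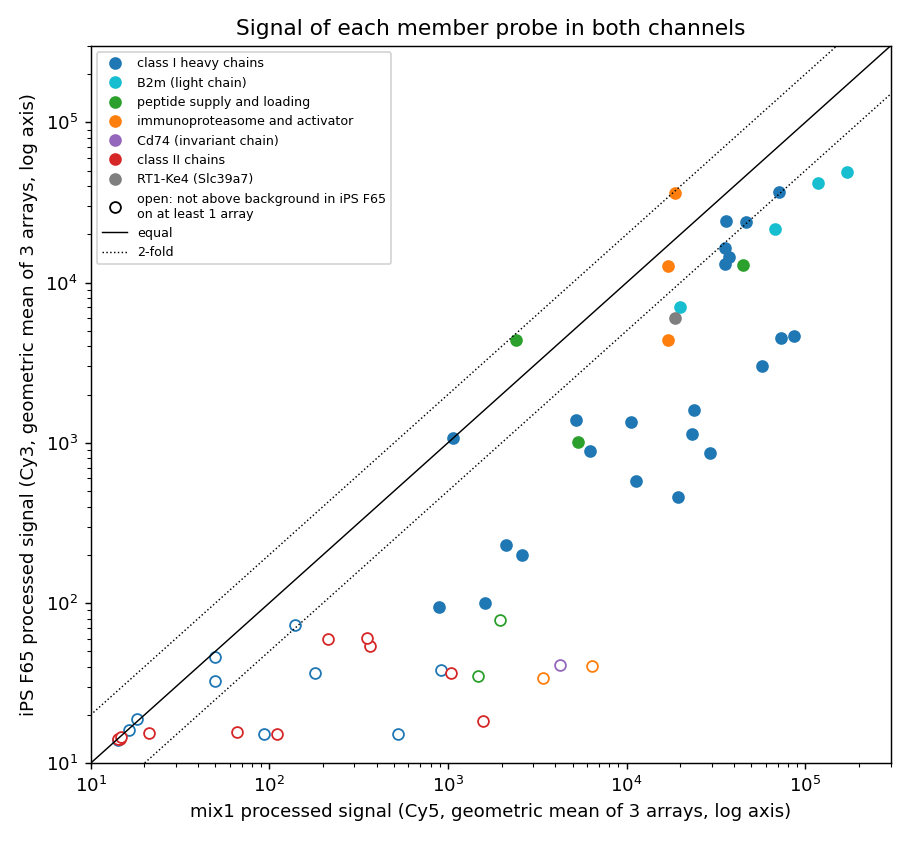
Each point is a member probe, with the geometric mean of its processed signal over 3 arrays in mix1 (horizontal, log axis) and in iPS F65 (vertical, log axis), a solid line at equal signal and dotted lines at 2-fold. Every class II point is open, not well above background in iPS F65 on at least 1 array, while most class I points are filled and lie below the line.

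The class I and class II probes had median ratios of -3.22 and -2.82, and -3.18 and -1.80 with loess. Of the tested member probes, 22 of 26 for class I and 0 of 6 for class II were well above background on all arrays in both channels. RT1-DMa, a class II chain that the name rule leaves out, passed that mark in both channels. No test of the difference between the classes was made, since probes of 1 class are not replicates. The lower calls at the class II probes are no support for a difference, since each entered the test through mix1 alone. The order of the 2 medians depends on which probes are counted. With 1 probe per gene name, the one brightest over both channels, the order turned, at -2.89 for class I and -4.83 for class II. Where iPS F65 is near background, that choice favours the probe brightest in mix1 and so tends to lower the class II median. The turn is therefore no result about the classes. Macrophage markers, which mark cells that carry class II, had a median ratio of -5.66 and fibroblast markers one of -7.89. The dendritic list, with its 2 Cd83 probes, had a median of 1.31. Their part in the class I and class II ratios was not tested.

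Most probes for enzymes that prepare peptides for class II were also lower. Of 8 tested probes for 6 endosomal enzymes, 7 were lower and none was higher, beside 24.1% and 31.2% of all tested probes. Cathepsin S (Ctss), which trims the invariant chain, was at -8.54 and at least 205-fold lower, with -6.30 at its second probe. Both Ctss probes passed the filter through mix1 alone. Cathepsin B (Ctsb) was at -5.43. The smallest drops were those of legumain (Lgmn) at -1.65 and cathepsin L (Ctsl) at -2.95. The thiol reductase Ifi30 was at -0.16 and was not called. Of the costimulators, Cd40 was at least 16.8-fold and at least 3.64-fold lower at its 2 probes and Cd86 at least 2.71-fold, none of them well above background in iPS F65. Their ratios were -5.78, -4.07 and -3.46, and -3.81, -1.90 and -1.79 with loess. Cd80 was higher, at 3.41, but passed the filter through iPS F65 alone, where a higher ratio was close to fixed. It was above background in mix1 on 2 arrays.

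The interferon gamma path, which can raise many of the members, was lower at 10 of 11 probes for 8 genes, with a median of -2.18. Of all tested probes 24.1% were lower. The Irf2 and Socs1 probes passed the filter through mix1 alone. A bearing of this path on the member ratios was not tested. The kinase Jak2 was at -2.92 and the receptor chain Ifngr1 at -2.86, the 2 lowest. The other receptor chain, Ifngr2, was at -1.76. The smallest called drop was that of the inhibitor Socs1 at -1.12, which lost its call with loess (-0.74). Irf1, the factor that binds many class I promoters, was at -0.57 and was not called.

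Of 12 probes for 6 factors that sit on the promoters of both classes, 5 were higher and none was lower, beside 31.2% and 24.1% of all tested probes. Their median was 0.98, and they are given as single genes. Nfyb, a subunit of the CCAAT-binding factor, was higher at 3 probes (1.20, 2.45 and 1.70). Nfyc, another subunit, was higher at 1 probe (2.38) and not called at the other (0.53). Rfx5, the subunit of the X box factor whose loss in humans removes class II, was higher at 1.58, at least 2.44-fold. The Rfx5 probe passed the filter through iPS F65 alone, where a higher ratio was close to fixed. With loess the median was 0.48 and 3 of the 12 probes were higher, as Rfx5 (0.68) and the first Nfyb probe (0.81) lost their calls. Rfxank, Creb1 and Nfya gave 0.56 to 0.85, 0.97 to 0.99 and 0.53, none called.

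Genes with a class I fold outside the classical set did not follow one direction. Of 5 tested probes for 4 genes, 3 were lower and 2 higher, beside 24.1% and 31.2% of all tested probes. The neonatal Fc receptor Fcgrt was at -7.32, and the protein C receptor Procr, above background in iPS F65 on 1 array at each probe, was at -6.86 and -5.50. Both Procr probes passed the filter through mix1 alone, where a lower ratio was close to fixed. The lipid-presenting Cd1d1 was higher at 2.19 and the iron regulator Hfe at 2.38. A second Hfe probe, above background in mix1 on 2 arrays and in iPS F65 on none, was not tested and gave -2.70. A class I gene that the array lists as H2-T18, RT1-T18 in RefSeq, was lower at -2.37 (at least 2.48-fold) and not called at its other probe (-0.09). RT1-M5, listed under a provisional name, was at -0.37 and was not called.

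RT1-Ke4 carries an RT1 name for its place within the MHC. RefSeq lists it as Slc39a7, a zinc transporter with no part in antigen presentation, and it was kept apart from class I. It read 5389, 6275 and 6393 in iPS F65 and 16930.1, 19556 and 19979 in mix1, lower at -1.65 ± 0.01. With it, the class I median was -3.20.

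The promoters of 37 of the 42 gene names were found in RefSeq (build GRCr8), each as 250 bases before to 50 after the start of the gene. Letters were searched on both strands, none of the 3 sets contains another, and a match describes the window and is not a site. The core of the interferon-stimulated response element, GAAA followed by any 2 bases and GAAA, was in 3.92% of all 33469 promoters and in 7 of 11 promoters of B2m, the loading genes and the proteasome genes. It was in 2 of 18 class I promoters and in 0 of 7 class II and Cd74 promoters. The 7 of 11 were B2m, Tap1, Tap2, Tapbp, Psmb8, Psmb10 and Psme2, and 6 of them are called lower above. Of all tested member probes 40 of 48 were lower, so this count does not set them apart. Tap1, Tap2 and Psmb8 passed the filter through mix1 alone. Psmb10, at 0.96, holds the core too, and Psmb9, at -7.30, does not. A link between the core and the ratios was not tested. Some of these promoters are printed up to the start of the gene, with this core and CCAAT in capitals where they lie on either strand. The core in Psmb8 lies after its start. Each sequence reads 5′ to 3′ on the gene's own strand and is shown because its gene is described above:
Tap1: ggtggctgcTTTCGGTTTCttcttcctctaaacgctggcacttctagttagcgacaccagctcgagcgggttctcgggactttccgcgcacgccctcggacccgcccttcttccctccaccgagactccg
Tap2: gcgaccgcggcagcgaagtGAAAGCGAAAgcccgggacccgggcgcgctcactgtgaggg
Psmb10: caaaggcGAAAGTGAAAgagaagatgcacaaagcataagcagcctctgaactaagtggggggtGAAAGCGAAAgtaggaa
Psme2: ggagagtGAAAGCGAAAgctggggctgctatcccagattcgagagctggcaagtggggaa
B2m: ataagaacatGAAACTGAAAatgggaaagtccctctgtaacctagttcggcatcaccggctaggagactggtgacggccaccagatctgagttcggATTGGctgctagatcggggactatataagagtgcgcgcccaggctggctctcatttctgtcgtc

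In GRCr8 these lie at chr20:4668544-4668673, minus strand (Tap1), chr20:4652297-4652356, minus strand (Tap2), chr19:50743293-50743372, minus strand (Psmb10), chr15:33052752-33052811, minus strand (Psme2) and chr3:129549170-129549329, plus strand (B2m). Tap1 and Psmb9 start back to back on opposite strands, 457 bases apart. The Tap1 core begins 121 bases before the Tap1 start, which is 336 bases before that of Psmb9 and outside its window. A kappaB site of the class I enhancer, 10 letters long and shown in capitals near the 5′ end of the next sequences, was in 0.114% of all promoters, in 5 of 18 class I promoters and in 0 of 18 of the other members'. The 5 were RT1-A2, RT1-A3, RT1-CE4, RT1-CE10 and RT1-CE16. The mean ratios were -5.09 and -4.26 for RT1-A2, -4.23 for RT1-CE16 and -1.91 and -1.45 for RT1-CE4. RT1-A3, dim in iPS F65, gave -2.28, and RT1-CE10 had no tested probe. A link between this site and the ratios was not tested. The promoters of RT1-A2, RT1-CE16 and RT1-CE4 are printed:
RT1-A2: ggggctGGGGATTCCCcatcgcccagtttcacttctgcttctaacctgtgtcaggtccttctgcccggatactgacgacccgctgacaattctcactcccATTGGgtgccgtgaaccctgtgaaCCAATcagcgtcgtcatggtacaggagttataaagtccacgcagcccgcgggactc
RT1-CE16: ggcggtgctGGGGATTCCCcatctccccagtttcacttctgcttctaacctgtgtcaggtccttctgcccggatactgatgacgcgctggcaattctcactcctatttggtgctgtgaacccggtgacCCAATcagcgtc
RT1-CE4: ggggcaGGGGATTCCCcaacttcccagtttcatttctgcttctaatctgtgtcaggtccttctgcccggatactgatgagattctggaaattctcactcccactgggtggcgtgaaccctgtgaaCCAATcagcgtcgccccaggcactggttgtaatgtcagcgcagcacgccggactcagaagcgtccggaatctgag

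In GRCr8 these lie at chr20:4872691-4872870, plus strand (RT1-A2), chr20:3265444-3265583, minus strand (RT1-CE16) and chr20:3509157-3509356, minus strand (RT1-CE4). CCAAT letters were in 37.5% of all promoters, in 13 of 18 class I promoters, in 7 of 7 class II and Cd74 promoters and in 5 of 11 promoters of B2m, the loading and the proteasome genes.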

How the data were processed

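Total RNA was measured on 3 Agilent 2-colour arrays with 45018 spots each, all on 1 slide and in 1 scan, with iPS F65 always in Cy3, so neither dye nor batch could be tested. Agilent Feature Extraction 9.5.3.1 made the scanner files, and probe positions are those of build rn3, per the file headers. The deposited intensity columns hold the mean and background signals of each spot as well as processed signals, already corrected for background and dye by that software, per the file headers. The deposited log2 values of the series table matched log2 of the processed green over the processed red signal within 3.11e-06 at all 41012 probes.

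From these, log2 ratios of iPS F65 over mix1 were computed, leaving out control spots and 204 to 213 outlier-flagged spots per array; no spot was saturated. Spots of 1 probe were averaged. Means were tested against 0 with limma 3.58.1 in R 4.3.3 (lmFit and eBayes), with Benjamini-Hochberg adjustment over 25801 tested probes. Bounds used channel levels after Aquantile scaling, which are open to dye bias without a dye swap. The precision is limited by the number of arrays. The fit was tested on simulated data. Promoters are RefSeq's of build GRCr8, matched by symbol or accession. RT1-Ke4 was moved out of class I after its RefSeq identity was found; one alternative, chosen after seeing the data, keeps it. The members and lists were chosen with earlier results of these data known.

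Alternatives were normexp (offset 50) with loess, with uneven or given local backgrounds, no background subtraction with loess, centring, both or no filters on dim probes, outlier spots kept, the series table, 1 probe per gene name, no 2-fold limit and leaving out each array. Every member is named or counted. Values on each array are printed for every tested member, apart from 3 of the B2m probes, which are given as means. Of the other pathway genes the extremes among the called probes are named by rule. Others were named to fill out a list after their values were seen. Where a name has several probes, each was kept, except that the setting with 1 probe per gene name kept the brightest over both channels. The exon or untranslated position of a probe was not analysed here. Some genes of the lists are counted but not reported here by name, and 1 motif searched is not reported here.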

Additional observations from a re-analysis of the deposited data

How the results depend on the processing

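Among 48 tested member probes, all kept direction and call with median centring, outlier spots kept, the series table values and no filter on dim probes. Leaving out 1 array gave 14162 to 14200 probes called over the whole array, 40 to 41 member probes, class I medians of -3.26 to -3.19 and class II medians of -2.89 to -2.72. Each ratio sets iPS F65 against mix1 within 1 array. No paired analysis was possible beyond that because the iPS F65 samples form a single group. With normexp and backgrounds as given, 5148 probes were called in all and 22 of the members, with medians of -1.77 for class I and -0.75 for class II. There 18 member probes lost their call, and the cause was not tested. Calls of lower class I probes were 14 of 26 in that setting and 23 of 26 with uneven backgrounds replaced, where the class II median was -1.80. With no background subtraction and loess, the medians were -3.15 and -1.76. Without the filter on dim probes they were -2.70 and -2.06, since undetected probes enter, and with 1 probe per gene name they were -2.89 and -4.83. Only probes above background in both channels left 26 called members of 33, and no class II probe, so that median had no value. Without the 2-fold limit 24680 probes were called. The RT1-CE5 probe near 0 was at -0.35 in both settings with loess that replaced or ignored backgrounds, -0.17 with backgrounds as given and between -0.0036 and 0.043 on leaving out 1 array. Background limits the ratios of dim probes, among them class II, Psmb8, Psmb9, Tap1 and Cd74.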
